A study of Mus musculus with 33 samples.

Results

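RNA-Seq read counts of frontal cortex were compared between offspring labelled male that inhaled e-cigarette aerosol with nicotine and others so labelled that inhaled it without. The comparison holds the 11 libraries whose titles carry an M and whose labels name one of these exposures, of 33 libraries in the series: 6 with nicotine (replicates 15, 16, 17, 19, 21 and 22) and 5 without (replicates 2, 3, 4, 5 and 7). All were C57BL/6 mice. Their dams inhaled the aerosol through gestation in daily sessions of 3 h, 5 days a week, and dams and pups inhaled it together from some days after birth through lactation. Handling was the same, but exposures ran in separate chambers, so chamber and nicotine cannot be told apart. The liquid of the nicotine group contained 13 to 16 mg/mL nicotine, and brains were taken at PND 25 to 31. Per the study's methods each offspring of a group came from its own litter, and the mean particulate level in the chamber was somewhat lower with nicotine than without, so nicotine and particle level cannot be told apart. Another 6 libraries labelled male, from mice that breathed filtered air (replicates 30, 31, 33, 37, 38 and 39), entered the fit to share its estimate of the spread.

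Nicotine acts on nicotinic acetylcholine receptors, ligand-gated channels built from alpha and beta subunits that in cortex sit on interneurons, on pyramidal neurons and on the terminals of incoming axons. Acetylcholine reaches the frontal cortex mainly from neurons of the basal forebrain. The first postnatal weeks are also the time in which cortical synapses form and axons are wrapped in myelin.

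Library totals ran from 17845672 to 24787955 counts with nicotine and from 20169460 to 23791563 without. The library labelled nicotine replicate 21 went against its label: it held 4632 counts of Xist, the RNA of the inactive X chromosome, and 1 count over 4 genes of the Y chromosome (Uty, Kdm5d, Eif2s3y and Ddx3y), where each other library labelled male held at most 5 counts of Xist and 110 to 136 CPM of those 4. The calls are therefore given with and without it. Males and females below mean the libraries so labelled, this one among the males unless left out. The library labelled no nicotine replicate 7 held 1000 summed CPM of 10 choroid plexus markers, against 34.4 to 64.0 in the other no nicotine libraries. CPM are counts scaled to a common library total, after TMM scaling, a factor per library that offsets differences in composition. On the first principal component (22.7% of the variance of log2 CPM) the libraries with nicotine ran from -8.90 to 4.83, between those of air (-23.9 to -11.0) and those without nicotine (14.0 to 31.3). Slc17a7, which encodes the vesicular glutamate transporter of cortical pyramidal neurons, was lowest at 654 CPM, in no nicotine replicate 3, and no library lacked it. In whole tissue, fewer cells of a type and less RNA per cell cannot be told apart.

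Expression of 38 genes differed between nicotine and no nicotine at an edgeR adjusted p below 0.01, the threshold of the study. Among them 34 were higher and 4 lower with nicotine. The 34 were Tshz3, Bmp3, Lct, Slc39a10, Ccdc3, Rtn4rl1, Pcdh1, Nrn1, Pgm2l1, Lancl2, 3110047P20Rik, Slc30a3, Zbtb18, Man1a2, Olfm1, Atrnl1, Pdk1, Sh3gl2, Mef2c, Nptx2, Smim13, Tmem132d, Rasgef1c, Enc1, Dkkl1, Kcnv1, Sorbs2, Dnm1, Gabbr2, Lingo1, Cacna1a, Hace1, Scube1 and Nrcam. The 4 were Bcas1, Nkain4, Kndc1 and Klf15. Changes were small: the median absolute log2 fold change of the 38 was 0.45, the range was 0.22 to 1.66, and Bmp3 and Lct were the 2 that exceeded 2-fold. The 38 were 0.248% of the 15293 genes tested, the higher ones 0.222% and the lower ones 0.0262%. At the looser threshold of 0.05, 544 genes passed (3.56%), 332 higher (2.17%) and 212 lower (1.39%), and 3071 genes (20.1%) had an unadjusted p below 0.05. Without the library labelled nicotine replicate 21, 5 of the 38 passed 0.01 (0.0328% of 15229 genes), namely Tshz3, Bcas1, Bmp3, Lct and Slc39a10, and 262 genes passed 0.05 (1.72%), 179 higher (1.18%) and 83 lower (0.545%). The fold changes of the 38 moved little: all 38 kept their sign without it, no log2 fold change shifted by more than 0.033, and the largest edgeR adjusted p among the 38 was 0.0232.

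The number of calls depended on which libraries were in the fit. When only the 11 libraries with and without nicotine were fitted, edgeR called no gene at 0.01 or 0.05, with 2649 genes at an unadjusted p below 0.05, and 2265 when nicotine replicate 21 was also left out. Leaving out 1 library gave 0 calls at 0.01 without no nicotine replicate 3 or 5, 1 without no nicotine replicate 4, and 5 without air replicate 31 or nicotine replicate 16, 17, 21 or 22. It gave 8 without air replicate 37, 12 without air replicate 33, 19 without air replicate 39, 21 without air replicate 38, 100 without no nicotine replicate 2, 161 without no nicotine replicate 7 and 246 without nicotine replicate 19. DESeq2 called 456 genes, all 38 among them, of which 68.4% were higher with nicotine against 89.5% with edgeR. None of the 38 changed direction in any of 27 alternative fits.

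**Figure D1:**
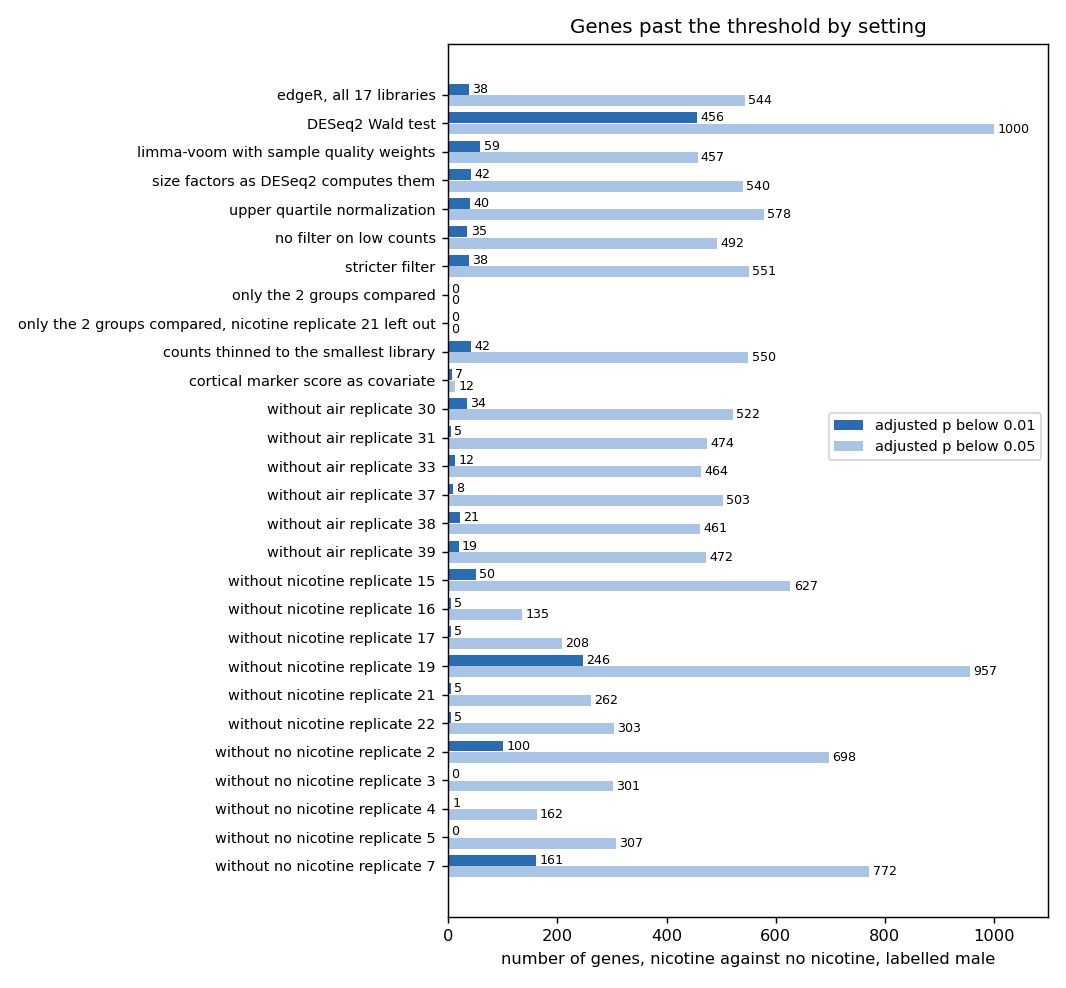
Number of genes (x axis) past an adjusted p of 0.01 (dark bars) and 0.05 (light bars) between the nicotine and no nicotine libraries labelled male, for the edgeR fit of all 17 libraries and for each alternative (y axis). Counts run from 0 to 456 at 0.01, and fitting only the 2 groups compared leaves 0 at both thresholds.

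Tshz3, a zinc finger homeobox factor of cortical projection neurons, lies at chr7:37483137-37558476 (mm9, plus strand) and had the smallest p of all genes tested. It measured 15.8, 16.6, 17.8, 15.04 and 20.5 CPM in no nicotine replicates 2, 3, 4, 5 and 7, and 23.5 to 31.7 CPM (median 25.7) in the nicotine libraries. The groups did not overlap, and the air libraries held 28.1 to 32.9 CPM. The log2 fold change was 0.63 ± 0.08 (SE), a 1.55-fold difference, with an edgeR adjusted p of 0.00239, or 0.64 and 0.00869 without nicotine replicate 21. Mef2c, a MADS-box factor that shapes cortical synapse number, measured 412, 328, 321, 376 and 432 CPM without nicotine and 453 to 659.7 CPM (median 549.9) with it, again with no overlap. Its change was 0.56 ± 0.09 (SE, edgeR adjusted p = 0.00692), and 0.54 with an adjusted p of 0.0179 without replicate 21. Zbtb18, a repressor needed for cortical neuron differentiation, differed by 0.54 on the log2 scale.

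Bmp3, an atypical bone morphogenetic protein (chr5:99283458-99309979, mm9), measured 4.65, 2.605, 5.88, 3.797 and 5.78 CPM without nicotine and 8.54 to 13.9 CPM (median 11.8) with it. The groups did not overlap, and the air libraries held 10.3 to 16.6 CPM. Its log2 fold change was 1.31 ± 0.18 (SE, edgeR adjusted p = 0.00239), which is 2.49-fold, and 1.29 without replicate 21 (adjusted p = 0.00869). Nrn1 encodes neuritin, a membrane-anchored protein that promotes neurite growth and is induced by neuronal activity. It measured 139, 101, 97.5, 118 and 126 CPM without nicotine and 129 to 266 CPM (median 225) with it, and nicotine replicate 19 lay within the no nicotine range. The log2 fold change of Nrn1 was 0.90 ± 0.14 (SE, edgeR adjusted p = 0.00639, 0.0163 without replicate 21). Ccdc3, a secreted coiled-coil protein, measured 11.02, 7.598, 10.1, 10.4 and 13.2 CPM without nicotine and 13.4 to 22.2 CPM (median 20.8) with it, without overlap. It differed by 0.87 ± 0.13 on the log2 scale (SE, edgeR adjusted p = 0.00639, 0.0163 without replicate 21). Also higher were Nptx2 (0.68), a pentraxin that clusters AMPA receptors at excitatory synapses, Olfm1 (0.62), an olfactomedin abundant in cortical neurons, Scube1 (0.86) and Dkkl1 (0.79), all as log2 fold changes.

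**Figure D2:**
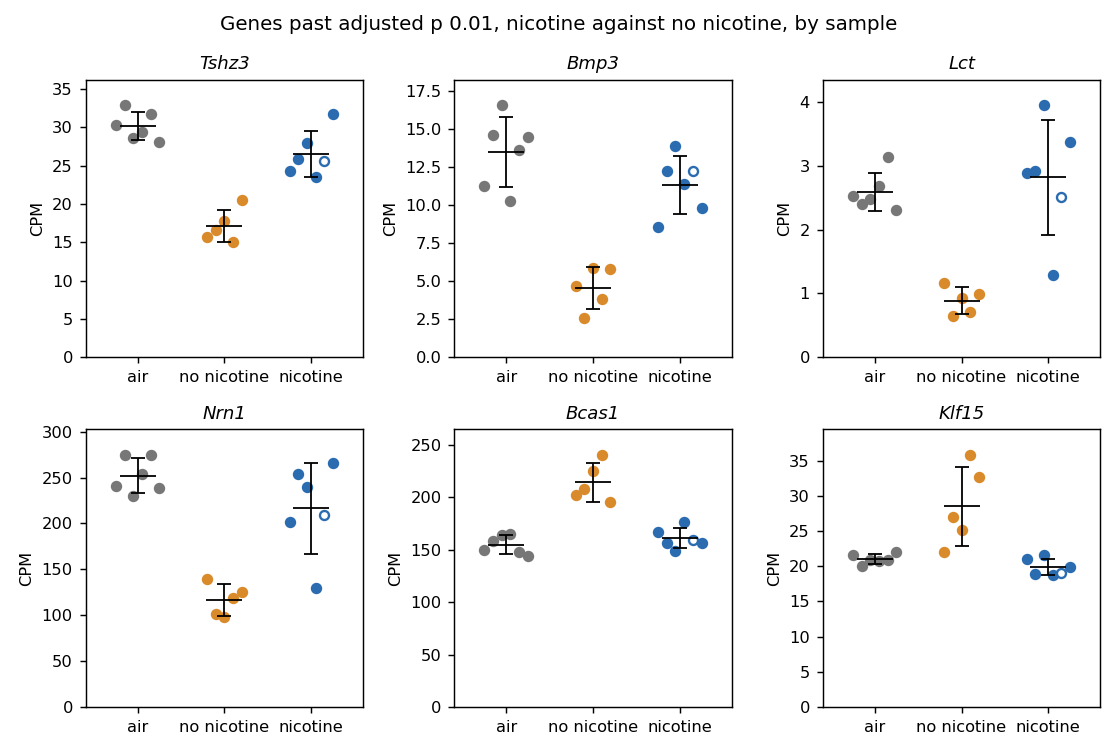
CPM (y axis, from 0) of 6 of the 38 genes in each air, no nicotine and nicotine library labelled male, with the group mean and SD in black and nicotine replicate 21 as an open circle. For Tshz3, Bmp3, Lct, Bcas1 and Klf15 the 2 exposed groups do not overlap, while 1 nicotine library lies among the no nicotine libraries for Nrn1.

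Slc39a10, which encodes the zinc importer ZIP10 (chr1:46864389-46910891, mm9, minus strand), measured 142, 129.6, 139, 135 and 141 CPM without nicotine and 159 to 212 CPM (median 186) with it. No library of one group reached the other, and the log2 fold change was 0.42 ± 0.06 (SE, edgeR adjusted p = 0.00239, 0.00869 without replicate 21). Slc30a3 encodes ZnT3, the transporter that loads zinc into glutamatergic synaptic vesicles. It measured 97.8, 59.5, 83.9, 86.98 and 101 CPM without nicotine and 92.8 to 210.0 CPM (median 179.6) with it, where the lowest nicotine library, replicate 19, fell among those without nicotine. The difference was 0.99 ± 0.16 (SE, edgeR adjusted p = 0.0064, 0.0163 without replicate 21). Lct, the gene of the disaccharidase lactase (chr1:130181333-130224895, mm9, minus strand), was low in every library. It measured 1.16, 0.651, 0.926, 0.709 and 0.995 CPM without nicotine and 1.28 to 3.95 CPM (median 2.899) with it, without overlap. The 3.16-fold difference was the largest of the 38, with a log2 fold change of 1.66 ± 0.23 (SE, edgeR adjusted p = 0.00239, 0.00869 without replicate 21). Pgm2l1, which makes the sugar bisphosphate that activates phosphoglucomutases, measured 341, 298, 305, 335 and 390.5 CPM without nicotine and 384 to 487 CPM (median 445) with it. No nicotine replicate 7 exceeded the lowest nicotine library, replicate 15, and the log2 fold change was 0.41 ± 0.06 (SE, edgeR adjusted p = 0.00639, 0.0163 without replicate 21). Pdk1, a kinase that switches off pyruvate dehydrogenase, differed by 0.32 and the Golgi mannosidase gene Man1a2 by 0.31 on the log2 scale.

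Rtn4rl1, a member of the Nogo receptor family, measured 58.95, 54.7, 50.6, 54.9 and 66.3 CPM without nicotine and 69.3 to 81.1 CPM (median 76.2) with it, without overlap. On the log2 scale it differed by 0.41 ± 0.06 (SE, edgeR adjusted p = 0.00639, 0.0125 without replicate 21). Pcdh1, a protocadherin, measured 119, 113, 116, 108 and 119.5 CPM without nicotine and 135 to 167 CPM (median 142) with it, also without overlap. It differed by 0.34 ± 0.05 on the log2 scale (SE, edgeR adjusted p = 0.00639, 0.0117 without replicate 21). Lingo1, a partner of Nogo receptors (0.58), the adhesion molecule Nrcam (0.22) and Tmem132d (0.50) had log2 fold changes in the same direction. So did 3 genes of excitability, the pore subunit of P/Q-type calcium channels Cacna1a (0.31), the potassium channel subunit Kcnv1 (0.61) and the GABA-B receptor subunit Gabbr2 (0.31). Genes of membrane retrieval at synapses were also among them, the dynamin gene Dnm1 at 0.25 and the endophilin gene Sh3gl2 at 0.32.

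Lancl2, a LanC-like protein, measured 106, 96.3, 102, 101 and 96.8 CPM without nicotine and 112 to 151 CPM (median 134) with it, without overlap. It differed by 0.39 ± 0.06 on the log2 scale (SE, edgeR adjusted p = 0.00639, 0.0163 without replicate 21). 3110047P20Rik, a gene without an assigned name, measured 62.4, 40.5, 42.2, 52.9 and 50.4 CPM without nicotine and 60.2 to 123 CPM (median 96.5) with it, and the groups overlapped at their edges. Its log2 fold change was 0.97 ± 0.15 (SE, edgeR adjusted p = 0.00639, 0.0163 without replicate 21). Enc1, an actin-binding protein of neurons (0.49), Atrnl1 (0.47), Rasgef1c (0.43), Sorbs2 (0.39), the ubiquitin ligase gene Hace1 (0.33) and Smim13 (0.28) complete the 34, again as log2 fold changes.

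The 4 lower genes included an oligodendrocyte gene. Bcas1, which marks oligodendrocytes as they begin to myelinate, lies at chr2:170172491-170253345 (mm9, minus strand). It measured 203, 208, 225, 241 and 196 CPM without nicotine and 149 to 176 CPM (median 158) with it. The groups did not overlap, and the nicotine libraries lay in the range of air (144 to 165 CPM) or just above it. The log2 fold change was -0.41 ± 0.06 (SE, edgeR adjusted p = 0.00239, 0.00869 without replicate 21), 1.33-fold less with nicotine. Klf15, a glucocorticoid-responsive Kruppel-like factor, measured 21.9, 26.9, 25.1, 35.8 and 32.6 CPM without nicotine and 18.8 to 21.6 CPM (median 19.5) with it. The spread was wide without nicotine and narrow with it, and the highest nicotine library lay just under the lowest without. Its log2 fold change was -0.52 ± 0.09 (SE, edgeR adjusted p = 0.00923, 0.0232 without replicate 21). Kndc1, a Ras guanine exchange factor of dendrites, measured 102, 103, 111, 112 and 91.4 CPM without nicotine and 72.1 to 93.3 CPM (median 77.8) with it, with 1 overlapping library on each side. It differed by -0.39 ± 0.07 (SE, edgeR adjusted p = 0.00923, 0.0232 without replicate 21). Nkain4, whose product binds the sodium pump, measured 44.3, 44.3, 47.2, 44.1 and 41.1 CPM without nicotine and 34.6 to 39.5 CPM (median 37.02) with it, without overlap, and differed by -0.26 ± 0.05 (SE, edgeR adjusted p = 0.00923, 0.0179 without replicate 21). In all, 30 of the 38 genes did not overlap between the groups, with and without replicate 21. Over all genes tested 2.15% did not overlap, or 2.54% without replicate 21, and since the genes were chosen on the same contrast nothing is read from the difference.

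**Figure D3:**
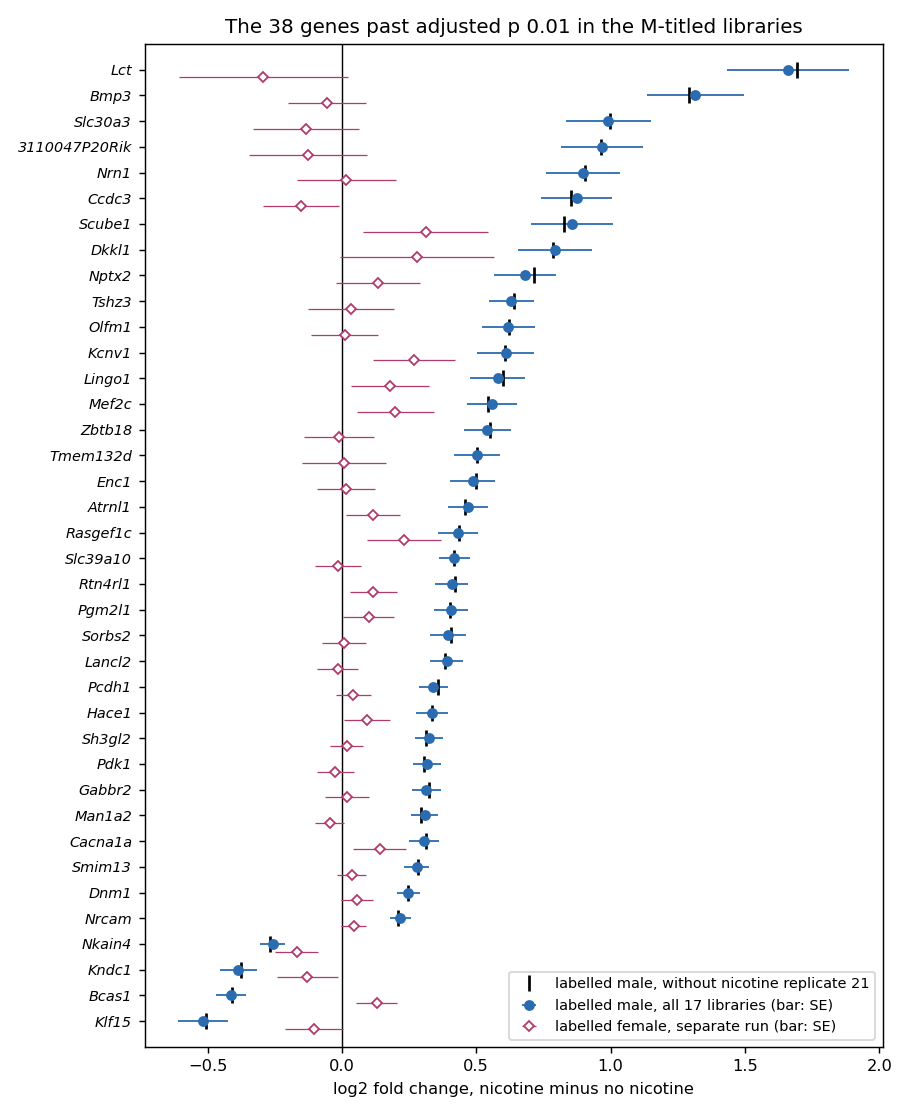
Log2 fold change of nicotine minus no nicotine (x axis) of the 38 genes (y axis) in the libraries labelled male (filled circles, SE), in the same libraries without nicotine replicate 21 (vertical ticks) and in the libraries labelled female (open diamonds, SE). Circles and ticks nearly coincide, the largest shift being 0.033, and most diamonds lie near 0.

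Of the 38 genes, 37 were found in the mm9 annotation (GENCODE M1), 13 of them overlapping a gene on the opposite strand. The sources used here do not say whether counting used strand, so reads of such pairs may be mixed. At most 3.15% of the 50-base windows of a called gene's transcripts occurred in another gene's transcripts, and 1 gene, 3110047P20Rik, exceeded 1%. Promoters of 25 of the 38 genes were found in the RefSeq table (GRCm38.p6, 250 bases before to 50 after each start site), and both strands were searched for 3 motifs. TGACGTCA, the palindromic cAMP response element bound by CREB, occurred at 1 of the 25 genes (4%) and at 2.03% of all 27025 genes with a promoter. CAGATG, an E-box bound by neurogenic basic helix-loop-helix factors, occurred at 7 of the 25 (28%) and at 19.2% of all genes, and TATAAA at 3 of the 25 (12%) and at 15.7%. Genes with several start sites were counted once if any window held the motif, and a match is only a match of letters. The 250 bases before the start site are shown for the gene with the cAMP response element, Sh3gl2 (chr4:85205206-85205455, GRCm38.p6, plus strand), and for the start site of Mef2c with an E-box (chr13:83573357-83573606, plus strand), with the matched letters in capitals.
Sh3gl2: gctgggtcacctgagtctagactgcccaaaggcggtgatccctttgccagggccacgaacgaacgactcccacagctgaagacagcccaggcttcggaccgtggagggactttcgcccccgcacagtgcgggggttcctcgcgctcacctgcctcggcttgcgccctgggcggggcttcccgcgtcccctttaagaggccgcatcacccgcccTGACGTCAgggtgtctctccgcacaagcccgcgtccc
Mef2c: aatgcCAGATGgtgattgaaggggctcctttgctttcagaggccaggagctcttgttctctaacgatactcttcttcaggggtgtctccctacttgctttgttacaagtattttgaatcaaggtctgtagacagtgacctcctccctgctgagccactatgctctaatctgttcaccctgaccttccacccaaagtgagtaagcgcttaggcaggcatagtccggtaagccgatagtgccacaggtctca

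None of the nicotinic receptor subunit genes passed the threshold. Of 16 such genes 11 were tested, and Chrna6, Chrna9, Chrnd, Chrne and Chrng were too low, with at most 9 counts in any library. The median log2 fold change of the 11 was -0.02, against -0.01 over all genes tested, with 5 above 0 and 6 below, and it lay between -0.04 and 0.05 when any 1 library was left out. By edgeR, Chrnb4 and Chrna5 had an unadjusted p below 0.05, and DESeq2 called 0 of the 11. Chrna4 and Chrnb2 encode the subunits of the main high-affinity receptor of the brain. Chrna4 measured 42.4, 36.5, 44.3, 44 and 45.1 CPM without nicotine and 34.2 to 56.6 CPM (median 38.3) with it, and the log2 fold change was -0.03 ± 0.11 (SE, 95% interval -0.25 to 0.20, edgeR adjusted p = 0.917). Chrnb2 measured 83.7, 93.4, 85.4, 71.9 and 73.3 CPM without nicotine and 71.6 to 80.8 CPM (median 76.8) with it, with a log2 fold change of -0.09 ± 0.06 (SE, interval -0.23 to 0.04, edgeR adjusted p = 0.456). For both genes the nicotine libraries overlapped those without. Chrna7, the subunit of the homomeric alpha7 receptor, measured 14.2, 15.8, 11.6, 10.4 and 11.5 CPM without nicotine and 11.8 to 15.6 CPM (median 12.8) with it. On the log2 scale it differed by 0.06 ± 0.10 (SE, interval -0.15 to 0.27, edgeR adjusted p = 0.788).

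Chrna5 and Chrnb4, members of one cluster of receptor genes, had the smallest p of the subunit genes. Chrna5, an accessory subunit of cortical layer VI, measured 1.35, 1.08, 1.41, 1.27 and 1.23 CPM without nicotine and 1.29 to 2.004 CPM (median 1.59) with it, and nicotine replicate 22 lay among the no nicotine libraries. Its log2 fold change was 0.35 ± 0.16 (SE, interval 0.02 to 0.68, edgeR adjusted p = 0.225), and the exact two-sided permutation test over the 11 libraries gave p = 0.0108, or 0.0649 adjusted over 18 genes. The smallest p this test can give is 0.00433. Chrnb4 was low, at 0.511, 0.912, 1.25, 0.759 and 0.852 CPM without nicotine and 0.121 to 0.744 CPM (median 0.356) with it. It differed by -1.14 ± 0.40 (SE, interval -1.98 to -0.29, edgeR adjusted p = 0.119, 0.0835 without replicate 21). The other 6 subunit genes overlapped widely. Chrna2 measured 3.25, 3.78, 2.94, 2.08 and 2.46 CPM without nicotine and 1.85 to 3.62 CPM (median 2.53) with it. Chrna3 measured 1.49, 1.61, 2.29, 1.16 and 1.28 CPM and 1.12 to 2.56 CPM (median 1.36), where replicate 21 was the highest nicotine library at 2.56 CPM. Chrnb1, part of the muscle-type receptor, measured 2.05, 1.74, 1.53, 1.77 and 1.37 CPM and 1.49 to 2.23 CPM (median 1.87). The remaining 3 were low as well. Chrna1 measured 0.372, 0.304, 0.483, 0.203 and 0.284 CPM without nicotine and 0.217 to 0.513 CPM (median 0.383) with it. Chrna10 measured 0.7903, 0.478, 1.93, 0.759 and 0.332 CPM and 0.523 to 1.395 CPM (median 0.789), and Chrnb3 measured 0.883, 0.608, 0.443, 0.658 and 0.758 CPM and 0.2804 to 1.21 CPM (median 0.628). The log2 fold changes of these 6 ran from -0.16 (Chrna2) to 0.18 (Chrna1), with edgeR adjusted p from 0.611 (Chrnb1) to 0.979 (Chrna3). Without replicate 21 they ran from -0.26 (Chrna10) to 0.19 (Chrna1), with Chrna3 at -0.22 and Chrnb3 at -0.04, where it was 0.15 with that library. Of 11 genes for proteins that assemble, traffic or modulate these receptors (such as Lynx1 and Ric3) none passed 0.05 by edgeR, where 4 had an unadjusted p below 0.05, and the median log2 fold change was 0.05. With DESeq2, without nicotine replicate 19 and without no nicotine replicate 7, 1 passed, and the median was 0.10 without no nicotine replicate 3 and 0.03 without nicotine replicate 21. The smallest p among them belonged to Ly6e (0.27, edgeR adjusted p = 0.0822) and Ywhah (0.26, 0.145).

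**Figure D4:**
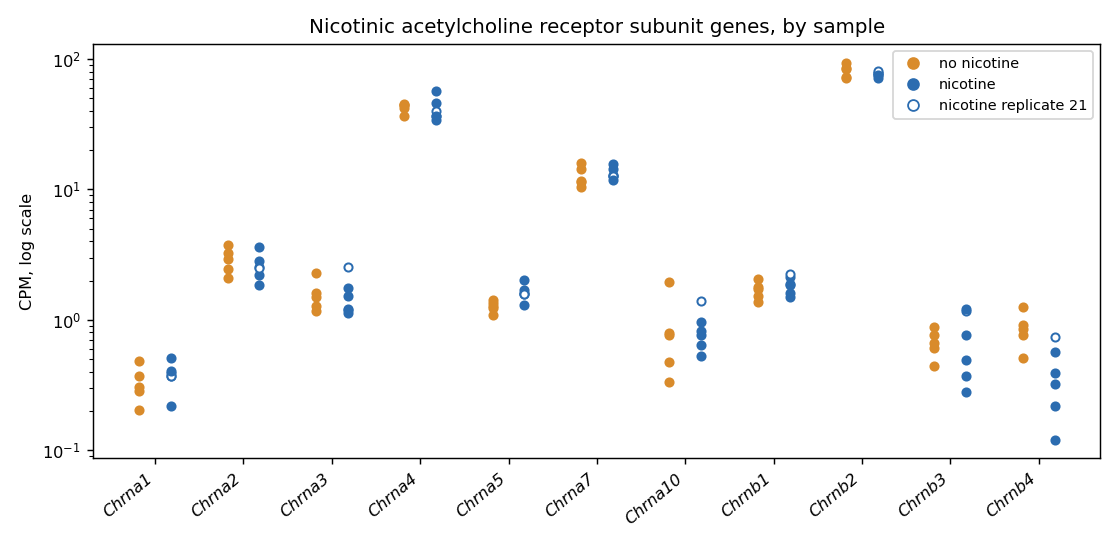
CPM (y axis, log scale) of the 11 tested nicotinic receptor subunit genes (x axis) in each no nicotine (orange) and nicotine (blue) library labelled male, with nicotine replicate 21 open. The groups overlap for every gene.

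Of 10 genes of cholinergic neurons 1 was lower with nicotine at the looser threshold, as 1.39% of all genes were. All 10 had negative log2 fold changes (median -0.54), and their summed level was 197 to 266 CPM with nicotine and 228 to 426 CPM without, against 94.5 to 175.5 CPM in air. Ache, acetylcholinesterase, measured 131, 149, 134, 109.5 and 92.4 CPM without nicotine and 85.2 to 97.7 CPM (median 94.2) with it. Only no nicotine replicate 7 lay within the nicotine range, and the log2 fold change was -0.40 ± 0.11 (SE, edgeR adjusted p = 0.0479, 0.074 without replicate 21). The edgeR call was lost with the size factors of DESeq2 and in 14 of the 17 fits that left out 1 library, while 3 of the genes passed without air replicate 31 and 6 without no nicotine replicate 7. With the test of DESeq2 itself 5 of the 10 passed, all lower, with Ache at a DESeq2 adjusted p of 0.0138. Slc18a3, the vesicular acetylcholine transporter, measured 33.4, 33.6, 27.3, 28.9 and 17.7 CPM without nicotine and 13.5 to 21.8 CPM (median 19.2) with it (-0.59, edgeR adjusted p = 0.0627). Chrm3, the M3 muscarinic receptor, was the 1 of 5 muscarinic receptor genes past 0.05 (2.17% of all genes were higher), at 0.37 ± 0.08 (SE, edgeR adjusted p = 0.0201, 0.0416 without replicate 21). It measured 30.6, 27.2, 25.97, 26.3 and 25.3 CPM without nicotine and 28.7 to 40.4 CPM (median 34.7) with it, with overlap, and did not pass without nicotine replicate 16 or no nicotine replicate 4. Without no nicotine replicate 7, 2 of the 5 passed. Chrm1 differed by 0.24 (edgeR adjusted p = 0.0724), while 3 of the 5 genes had negative log2 fold changes and the list median was -0.18. Of 9 genes of dopamine handling 1 was lower at 0.05 (1.39% of all genes): Ddc, which makes dopamine from its precursor, measured 11.9, 17.1, 18, 16.4 and 13.8 CPM without nicotine and 9.86 to 13.02 CPM (median 11.4) with it (-0.42, edgeR adjusted p = 0.0408, 0.0507 without replicate 21), and the call was lost in 11 of the 17 fits that left out 1 library. Drd5 differed by -0.26 (edgeR adjusted p = 0.283).

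The 7 genes that the study followed up by qPCR were picked from these samples, so their counts are no independent evidence. Tbr1, a factor of deep-layer cortical neurons, measured 78.3, 45.9, 84.6, 85.4 and 95.9 CPM without nicotine and 96.2 to 144 CPM (median 128) with it. It was the 1 of 7 past 0.05 (0.65 ± 0.14, SE, edgeR adjusted p = 0.0205, 0.0416 without replicate 21) and the 1 of 7 without overlap, with the smallest exact permutation p the 11 libraries allow (0.00433, or 0.0649 adjusted over 18 genes). The groups all but touched, at 95.9 and 96.2 CPM, and Tbr1 did not pass without nicotine replicate 16. Without no nicotine replicate 7, 4 of the 7 genes passed, 3 without nicotine replicate 19 and 2 without air replicate 31. Gdnf, a growth factor of dopaminergic neurons, measured 3.301, 4.25, 2.78, 3.595 and 2.32 CPM without nicotine and 1.395 to 2.56 CPM (median 2.04) with it (-0.68, edgeR adjusted p = 0.0661, exact permutation p = 0.0108). The overlap was limited to no nicotine replicate 7 and the upper nicotine libraries. Bdnf, brain-derived neurotrophic factor, measured 16.6, 14.3, 20.7, 21.2 and 24.7 CPM without nicotine and 17.02 to 32.9 CPM (median 27.9) with it (0.47, edgeR adjusted p = 0.1). The cholinergic genes Chat and Ngfr did not pass: Chat, choline acetyltransferase, measured 22.2, 21.4, 18.9, 17.6 and 9.04 CPM without nicotine and 9.701 to 14.03 CPM (median 12.7) with it (-0.54, edgeR adjusted p = 0.133). Ngfr, the p75 neurotrophin receptor, measured 48.4, 51.97, 44.8, 25.7 and 18.9 CPM without nicotine and 19.4 to 32.3 CPM (median 26.99) with it (-0.54, 0.323). In Chat, Ngfr and Tbr1 alike, no nicotine replicate 7 was the no nicotine library nearest to the nicotine group or beyond it. Adra1d, an alpha-1 adrenergic receptor, measured 5.81, 5.43, 6.84, 4.76 and 11.5 CPM without nicotine and 5.74 to 15.97 CPM (median 12.8) with it (0.75, edgeR adjusted p = 0.134). Gal, the neuropeptide galanin, measured 1.91, 1.39, 3.78, 0.709 and 0.805 CPM without nicotine and 0.561 to 1.81 CPM (median 0.764) with it. Replicate 21 was the highest nicotine library at 1.81 CPM, and the log2 fold change of Gal was -0.96 with it and -1.30 without it (edgeR adjusted p = 0.196 and 0.109).

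Of 16 markers of cortical glutamatergic neurons 7 passed 0.05, all higher with nicotine, where 2.17% of all genes did. The median log2 fold change of the 16 was 0.51, with 13 above 0 and 3 below. Their summed level was 1517 to 2651 CPM without nicotine, 2650 to 3531 CPM with it and 3608 to 4215 CPM in air, and the exposed groups met at no nicotine replicate 7 and nicotine replicate 15. The 7 were Mef2c, described above, Neurod1 (0.91, edgeR adjusted p = 0.0144), Rasgrf2 (0.48, 0.019), Tbr1, Emx1 (0.61, 0.025), Slc17a7 (0.61, 0.0252) and Bhlhe22 (0.77, 0.035). Neurod1, a helix-loop-helix factor, measured 8.23, 5.17, 6.16, 5.01 and 10.4 CPM without nicotine and 8.56 to 14.97 CPM (median 13.8) with it. Slc17a7 measured 1077, 654, 1125, 1186 and 1497 CPM without nicotine and 1469 to 2108 CPM (median 1632) with it. In both genes no nicotine replicate 7 reached into the nicotine range and the other 4 no nicotine libraries lay below it. Without nicotine replicate 21, 5 of the 16 passed. Leaving out 1 library gave 2 without nicotine replicate 16, 4 without nicotine replicate 17 or no nicotine replicate 4, and 10 without no nicotine replicate 7. Without nicotine replicate 19, 9 passed as higher and 1 as lower.

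Of 20 genes of neurotransmitter release 9 passed 0.05, all higher with nicotine, where 2.17% of all genes did. The median log2 fold change was 0.22, with summed levels of 13670 to 15270 CPM without nicotine, 15460 to 17460 CPM with it and 16920 to 18760 CPM in air. Among the 9, active zone scaffolds and priming factors were Bsn (0.44, edgeR adjusted p = 0.0126), Unc13a (0.28, 0.0135) and Pclo (0.22, 0.0289). Vesicle proteins were Sv2b (0.64, edgeR adjusted p = 0.0126), Syn1 (0.22, 0.0229), Syt1 (0.25, 0.0401) and Syp (0.20, 0.0463), and Stx1a, a syntaxin of the fusion machinery, differed by 0.61 (0.0236). Sv2b measured 378, 247, 306, 372 and 347 CPM without nicotine and 403 to 669.8 CPM (median 493) with it, without overlap. Without nicotine replicate 21, 5 of the 20 passed. The count was also 5 without no nicotine replicate 3 or 5, and it was 3 without nicotine replicate 16 or 17 or no nicotine replicate 4. Of 20 genes of glutamate receptors and plasticity 1 was higher (2.17% of all genes), Grin2a (0.53, edgeR adjusted p = 0.0403, 0.0834 without replicate 21), an NMDA receptor subunit, with a list median of 0.14. Grin2a also did not pass without nicotine replicate 16 or 17 or no nicotine replicate 4 or 5, while 2 genes passed without nicotine replicate 19 and 3 without no nicotine replicate 7. The other smallest p was that of Bdnf.

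Of 15 myelin genes 10 passed 0.05, all lower with nicotine, where 1.39% of all genes did, and the median log2 fold change was -0.48. Their summed level was 15190 to 25950 CPM without nicotine, 10610 to 16470 CPM with it and 10390 to 12790 CPM in air. Among the 10 were Nkx6-2 (-0.47, edgeR adjusted p = 0.0128), a factor of maturing oligodendrocytes, and the genes of myelin proteins and lipids Mbp (-0.58, 0.0144), Mobp (-0.63, 0.0261), Opalin (-0.49, 0.0303), Fa2h (-0.54, 0.0357), Cnp (-0.47, 0.0398), Mal (-0.56, 0.0448), Mog (-0.55, 0.0454) and Mag (-0.48, 0.0498). Mbp, myelin basic protein, measured 6959, 7958, 9205, 11430 and 7395 CPM without nicotine and 4862 to 7331 CPM (median 5624) with it. No nicotine replicate 5 was the highest of all 17 libraries for Mbp. Without nicotine replicate 21, 2 of the 15 passed, and the count was also 2 without nicotine replicate 16, 17 or 22 or no nicotine replicate 4 or 5. The count was 5 without air replicate 31, 33, 38 or 39 or no nicotine replicate 3, 6 without nicotine replicate 15, and 15 without no nicotine replicate 7. Of 8 genes of the oligodendrocyte lineage before myelin, Bcas1 and Olig1 (-0.28, edgeR adjusted p = 0.0217, 0.0472 without replicate 21) passed 0.05, both lower (1.39% of all genes), with 5 past it without nicotine replicate 15 or no nicotine replicate 2, 6 without nicotine replicate 19, 3 without air replicate 30 and 1 without nicotine replicate 16 or 17 or no nicotine replicate 4.

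**Figure D5:**
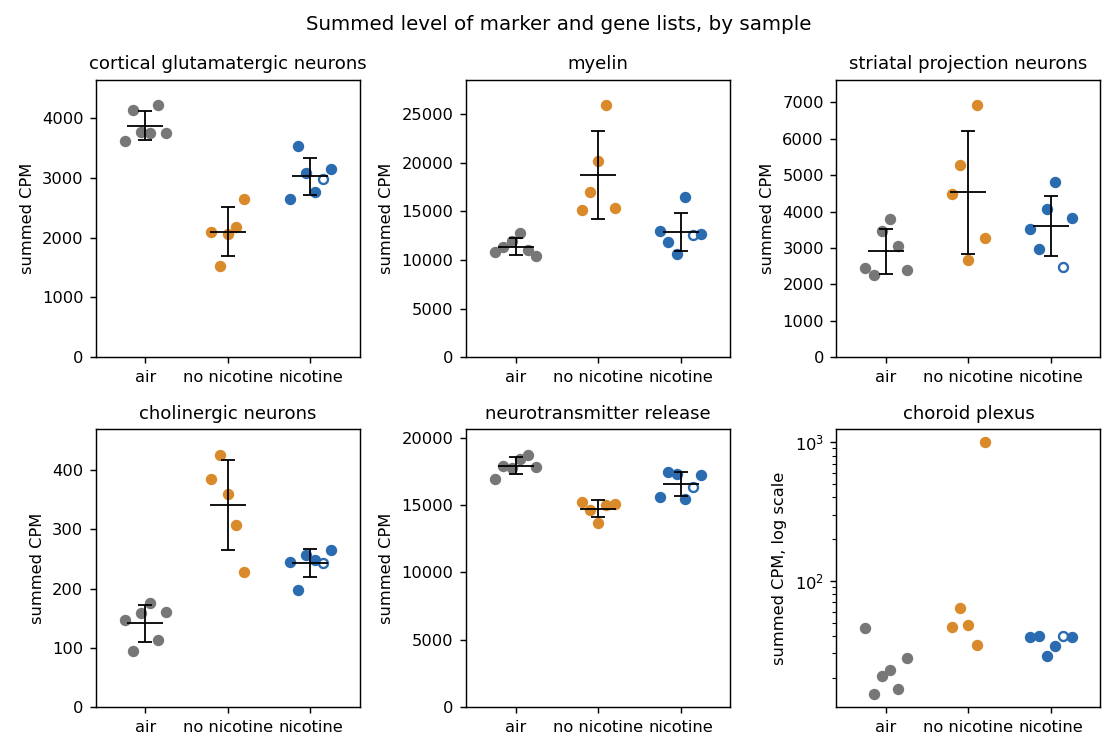
Summed CPM (y axis, log scale for choroid plexus) of 6 gene lists in each library labelled male, with group mean and SD in black except on the log scale, and nicotine replicate 21 open. By group mean, cortical glutamatergic and release genes read higher and myelin and cholinergic genes lower with nicotine than without. Among these the exposed groups overlap for all but the release genes, and 1 no nicotine library holds 1000 CPM of choroid plexus markers.

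Lists of other cell types were read for cells that the dissection could have brought in. All 15 markers of striatal projection neurons had negative log2 fold changes (median -0.39) and none passed 0.05, with summed levels of 2680 to 6927 CPM without nicotine and 2480 to 4817 CPM with it. Gpr6 (-0.61, edgeR adjusted p = 0.139) and Six3 (-0.44, 0.141) had the smallest p. The median was -0.17 without no nicotine replicate 5, and 2 markers passed without nicotine replicate 19. All 8 meningeal markers were positive (median 0.58), none past 0.05, led by Col1a1 (0.61, edgeR adjusted p = 0.165) and Slc6a13 (0.68, 0.213), and without nicotine replicate 22, which held 898.5 summed CPM, the median was 0.23. All 10 choroid plexus markers were negative (median -1.42) in the fit of all 17 libraries. In the fit without no nicotine replicate 7 only 7 were tested and none passed 0.05. The median was then -0.47, and Kl (0.26) and Aqp1 (0.80) were positive. Ttr, transthyretin, measured 3.86, 8.25, 1.53, 5.37 and 839 CPM without nicotine and 1.25 to 4.77 CPM (median 1.99) with it, so its log2 fold change of -6.09 (edgeR adjusted p = 0.0307) rests on no nicotine replicate 7, without which it was -0.90 (adjusted p = 0.594). It did not pass without nicotine replicate 16, 17, 21 or 22 either, and 2 markers passed without no nicotine replicate 2 and 3 without no nicotine replicate 5. Slc4a5 (-4.73, edgeR adjusted p = 0.06) was high in the same library, at 0.186, 0.0868, 0.121, 0.101 and 9.14 CPM without nicotine.

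Among 16 genes of GABAergic interneurons, Vip, the neuropeptide of a class of interneurons that respond to acetylcholine, was the 1 past 0.05, where 2.17% of all genes were higher (0.57 ± 0.13, SE, edgeR adjusted p = 0.0265, 0.051 without replicate 21). It measured 13.6, 13.98, 16.8, 12 and 21.7 CPM without nicotine and 20.01 to 29.8 CPM (median 22.7) with it. No nicotine replicate 7 alone reached the nicotine range. Vip also did not pass without nicotine replicate 16, 17 or 22 or no nicotine replicate 3, 4 or 5. Without nicotine replicate 19, 2 genes passed, both higher. Without no nicotine replicate 7, 1 passed higher and 3 lower, and with DESeq2 2 passed higher and 1 lower. Reln followed (0.29, edgeR adjusted p = 0.0617), but 10 of the 16 genes had negative log2 fold changes and the list median was -0.16. No member of the other 7 lists of cells and regions passed 0.05 in the fit of all 17 libraries. One library decided that for 3 of them: 1 astrocyte marker passed without air replicate 37 or nicotine replicate 15 or 19 (and with DESeq2), 1 microglia marker without nicotine replicate 15 and 1 hypothalamus marker without no nicotine replicate 5. Their smallest p belonged to Gja1 (-0.17, edgeR adjusted p = 0.0873) and Slc1a3 (-0.14, 0.12) for astrocytes, and to Trem2 (-0.20, 0.0762) and Tmem119 (-0.16, 0.408) for microglia. For endothelium they were Cldn5 (0.16, edgeR adjusted p = 0.378) and Tek (0.11, 0.392), for thalamus Rora (0.29, 0.106) and Prkcd (-0.30, 0.113), and for hypothalamus Cartpt (-0.41, 0.171) and Gal. For olfactory bulb they were Cdhr1 (0.75, edgeR adjusted p = 0.337) and Tbx21 (0.99, 0.638), and the median of that list was 0.28 with nicotine replicate 21 and -1.06 without it. Hemoglobin genes were listed at 0 counts, which left Alas2 (-0.08, 0.894) for blood.

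Along the same contrast as the 38 genes, the cortical, myelin and cholinergic lists had medians of 0.51, -0.48 and -0.54. At 0.05, 7 of 16, 10 of 15 and 1 of 10 of their members passed, and 0 when only the exposed groups were fitted. The part of these lists in the calls was not tested beyond 1 fit. With the mean log2 CPM of the cortical glutamatergic list as a covariate, all 38 genes kept their direction, their median absolute change being 0.31 in place of 0.45 on the log2 scale, and none passed 0.01. The list holds Mef2c, 1 of the 38, and also Tbr1, Neurod1 and Slc17a7, so for these genes the fit adjusts in part for the gene itself. That fit called 7 other genes, all lower with nicotine (Slc4a5, Cldn2, Folr1, Kcne2, 1500015O10Rik, Ttr and Enpp2), with 1998 genes (13.1%) at an unadjusted p below 0.05. Slc4a5, Folr1, Kcne2 and Ttr belong to the choroid plexus list, of which no nicotine replicate 7 held 1000 summed CPM and the other no nicotine libraries 34.4 to 64.0. The part of that library in these calls was not tested. Chat, at -0.54 without the covariate, was at 0.12 with it, and Ngfr, at -0.54, was at 0.29. List medians moved from -0.54 to 0.03 for cholinergic neurons, from -0.39 to -0.001 for striatal projection neurons, from 0.22 to 0.11 for neurotransmitter release and from -0.48 to -0.41 for myelin.

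Lists of cell functions came last. Of 45 genes of the respiratory chain, 44 had negative log2 fold changes, with a median of -0.09, and 4 subunits of complex I were lower at 0.05, as 1.39% of all genes were: Ndufa2 (-0.16, edgeR adjusted p = 0.0265), Ndufa6 (-0.16, 0.0325), Ndufs7 (-0.16, 0.0423) and Ndufa8 (-0.12, 0.0431). Ndufa6 measured 66.4, 61.7, 60.4, 59.1 and 59.9 CPM without nicotine and 52.3 to 56.2 CPM (median 56.1) with it. None of the 4 overlapped between the groups, and since they were chosen on the same contrast nothing is read from this. Over the list 6 of 45 did not overlap, where 2.15% of all genes did not. None of the 4 passed without nicotine replicate 16, 17 or 21 or no nicotine replicate 4, 1 passed without nicotine replicate 22 or no nicotine replicate 3, and 2 without air replicate 30 or 39, nicotine replicate 15 or no nicotine replicate 5. Of 14 genes of xenobiotic and antioxidant defence 1 was lower (1.39% of all genes), the thioredoxin reductase gene Txnrd1 (-0.16, edgeR adjusted p = 0.0438, 0.0812 without replicate 21), followed by Gstp1 (-0.27, 0.0803), 67.5% of whose transcript windows occur in another gene. Txnrd1 lost its call in 13 of the 17 fits that left out 1 library, and 2 genes passed without no nicotine replicate 7. None of 13 immediate early genes passed, with Fosb at -0.62 (edgeR adjusted p = 0.168) and Nr4a3 at -0.65 (0.199). None of 5 genes of estrogen and androgen signalling passed either, with Pgr, the progesterone receptor, at 0.15 (edgeR adjusted p = 0.0672) and Srd5a1 at -0.30 (0.139), though 1 passed with DESeq2 and without no nicotine replicate 3. Cyp19a1, aromatase, was too low to test, with at most 23 counts in a library.

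Levels in air are set beside both exposures, as comparisons that share the air libraries. Over the 34 genes higher with nicotine, the median log2 difference from air was -0.75 without nicotine and -0.19 with it. Over the 4 lower genes it was 0.43 without nicotine and 0.05 with it. Among the lists with members past 0.05 the medians included, for cortical glutamatergic neurons -0.86 without nicotine and -0.30 with it, for neurotransmitter release -0.31 and -0.12, for myelin 0.70 and 0.19, and for cholinergic neurons 1.54 and 0.98. The median with nicotine also lay between air and no nicotine for striatal projection neurons (0.72 without nicotine, 0.33 with it) and hypothalamus (1.42, 0.85). Dopamine handling (0.65, 0.33), oligodendrocyte precursors (0.40, 0.07), GABAergic interneurons (0.33, 0.08) and muscarinic receptors (0.44, 0.16) did so too. Choroid plexus stood at 2.34 and 0.31, with no nicotine replicate 7 in the fit. Some lists lay elsewhere: the median was -0.19 without nicotine and 0.39 with it for meninges, -0.21 and -0.40 for immediate early genes, 0.01 and -0.04 for microglia, and -0.11 and -0.19 for the 1 blood gene tested.

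The same contrast was read in 10 libraries labelled female, 5 with nicotine and 5 without, which share no library with the male comparison and were sequenced in another run, so that sex and run cannot be told apart. Of 15158 genes tested, edgeR called 0 at 0.01 or 0.05, with 1267 (8.36%) at an unadjusted p below 0.05, and DESeq2 called 0 and 1. Leaving out 1 library gave 771 genes at an unadjusted p below 0.05 without nicotine replicate 3, 777 without no nicotine replicate 3 and 2125 without no nicotine replicate 1, with 0 calls each time. None of the 38 genes had an unadjusted p below 0.05 there and 27 had the same sign. The 34 higher genes had a median log2 fold change of 0.03 in females and 0.48 in males, and the 4 lower ones -0.12 and -0.40. Myelin genes had a median of 0.07 in females, with 14 of 15 above 0, and cortical glutamatergic markers 0.16. Cholinergic genes were negative in all 10 cases in females too (median -0.41).

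The difference of the contrast between the runs was tested in 1 fit of all 33 libraries. Of 15105 genes, 6 (0.0397%) passed 0.05 and 0 passed 0.01, with 1900 at an unadjusted p below 0.05, while DESeq2 called 116 and 23. The 6 were Bcas1, Bmp3, Neurod1, Bhlhe22, Ccdc3 and Alox12e, a lipoxygenase. Bmp3 differed by 1.31 in males and -0.06 ± 0.14 (SE) in females, a difference of 1.37 ± 0.24 (SE, edgeR adjusted p = 0.024). Bcas1 differed by -0.41 in males and 0.13 ± 0.08 (SE) in females, a difference of -0.55 ± 0.10 (SE, edgeR adjusted p = 0.024). Bhlhe22 differed by 0.77 in males and -0.47 ± 0.11 (SE) in females, a difference of 1.24 ± 0.24 (SE, edgeR adjusted p = 0.0399). Without the library labelled nicotine replicate 21 none of the 6 passed 0.05.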

How the data were processed

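The authors deposited raw read counts per gene, 1 table per sex with 23366 genes. Per the study's methods these came from 50 base single reads on mouse mm9 transcripts, with Bowtie, SAMtools (duplicate removal) and HTSeq, and the submitters' processing notes name the same tools with bcl2fastq and DESeq2. Of 34 count columns 33 were matched to a labelled sample and 1 was not used here, nor were the authors' normalized tables. In the male table genes were tested when CPM summed over the 17 libraries reached 5, and removed genes held at most 0.0334% of any library's counts. TMM scaling and the quasi-likelihood test of edgeR 4.0.16 (R 4.3.3) were applied to the 3 male groups in 1 fit, with Benjamini-Hochberg adjustment. The labels do not state litters, so p-values measure the spread between these libraries. Count pairs within a group differed by more than sampling noise (chi-square per degree of freedom 5.94 to 25.2 over 25 pairs). Exact permutation tests used log2 CPM with a prior count of 1. DESeq2 1.42.0, limma 3.58.1 (voom) and other scalings, filters, sample sets and a covariate were alternatives. In simulated counts on 15293 genes the male fit recovered 73 of 100 genes changed by 0.5 and 95 of 100 changed by 1 on the log2 scale, with 0 false calls. The members, the 27 gene lists and the rules for naming genes were chosen with earlier results of these data known. All 38 genes past 0.01 are named, with full values for the 12 higher and the 4 lower ones with the smallest p, the 7 qPCR genes and the nicotinic receptor genes, and for every other list the 2 members with the smallest p plus each member past 0.05, except that some members counted in their lists are not reported here by name. Positions are from GENCODE M1 (mm9) and promoters from RefSeq (GRCm38.p6).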

Additional observations from a re-analysis of the deposited data

Results flagged for a closer look

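Of 160 groups of 5 or 6 libraries tested for 1 library far from the rest (Dixon's test), 10 held one (6.25%), and chance flags about 1 in 20. The library labelled nicotine replicate 21 stood apart for Xist (215.3 CPM, the others at most 0.224), for Gal (1.81 CPM, the others 0.561 to 0.801) and for the summed olfactory bulb markers (147 CPM, the others 25.2 to 49.1). No nicotine replicate 7 held 1000 summed CPM of choroid plexus markers, the others 34.4 to 64.0. Nicotine replicate 19 was low for Slc30a3 (92.8 CPM, the others 167.5 to 210.0) and for summed thalamus markers (87.8 CPM, the others 119.9 to 133). Nicotine replicate 16 was low for summed cholinergic markers (197 CPM, the others 243.5 to 266). No nicotine replicate 4 was high for Chrna10 (1.93 CPM, the others 0.332 to 0.790), replicate 3 low for Dkkl1 (3.43 CPM, the others 5.07 to 5.63) and replicate 2 high for Tmem132d (27.7 CPM, the others 21.6 to 23.3).

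The nicotine contrast differed between the libraries labelled male and those labelled female, at an edgeR adjusted p below 0.05, for Bcas1 (-0.55), Bmp3 (1.37), Neurod1 (1.28), Bhlhe22 (1.24), Ccdc3 (1.03) and Alox12e (3.05), as log2 differences of male minus female label. None passed without the library labelled nicotine replicate 21, and sex and sequencing run cannot be told apart.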

How the results depend on the processing

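None of the 38 genes changed direction, but the number of calls and the fold changes moved. With the cortical marker covariate Lingo1, of the 38, was at 0.26 in place of 0.58 and Pgm2l1 at 0.21 in place of 0.41. Among other named genes, Bdnf was then at 0.01 in place of 0.47, Ache at -0.03 in place of -0.40, Adra1d at 0.08 in place of 0.75 and Tbr1 at 0.16 in place of 0.65. Over the alternatives Ttr ran from -7.57 to -0.90, Slc17a7 from 0.10 to 0.74 and Stx1a from 0.09 to 0.80. At adjusted p 0.01 and 0.05 the main counts in males were 38 and 544. They were 456 and 1000 with DESeq2, 59 with voom at 0.01, 0 and 0 with only the exposed groups in the fit, also without nicotine replicate 21, and 7 and 12 with the cortical marker covariate. Leaving out 1 of the 17 libraries gave 0 to 246 and 135 to 957. Without replicate 21 (5 and 262), DESeq2 gave 307 and 751, voom 0 at 0.01, the fit of only the exposed groups 0 and 0, and the covariate 11 at 0.05. For females (0 and 0), DESeq2 gave 1 at 0.05 and leaving out each library 0 to 0. For the difference between the runs (0 and 6), DESeq2 gave 23 and 116, and leaving out replicate 21 gave 0 at both. Chat and Ngfr changed sign with the covariate, to 0.12 and 0.29. The cause was not tested. Other scalings and filters left each male count over all genes within 1.5 times, and the median of all genes moved by less than 0.01. Counts within a list could change more, as for cholinergic neurons, from 1 to 0 with the size factors of DESeq2.

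The replicate numbers 1, 2, 3 and 5 shared by female groups mark no known pairing, and same-numbered libraries deviated with correlations of -0.14, 0.25, -0.27 and 0.07. With the replicate block edgeR called 0 genes at both thresholds. The male exposed groups share no number. In males, sex-linked transcripts contradict 1 label, and particle level differed with nicotine.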

Other observations

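Genes outside the lists were chosen here after their values were seen, as the larger changes past 0.05. Igfn1, of the immunoglobulin and fibronectin family, measured 7.25, 3.78, 4.91, 4.303 and 2.51 CPM without nicotine and 3.79 to 19.7 CPM (median 15.2) with it (log2 fold change 1.63 ± 0.31, SE, edgeR adjusted p = 0.0127, 0.0232 without replicate 21). Nptxr, the receptor of neuronal pentraxins such as Nptx2, measured 15.7, 14.4, 17.7, 11.3 and 11.7 CPM without nicotine and 16.01 to 65.4 CPM (median 38.5) with it (1.55 ± 0.37, SE, edgeR adjusted p = 0.0285, 0.054 without replicate 21). Smoc2, a matricellular protein, measured 3.77, 1.52, 3.94, 3.24 and 7.06 CPM without nicotine and 6.51 to 8.92 CPM (median 7.995) with it (1.00 ± 0.22, SE, edgeR adjusted p = 0.0229, 0.045 without replicate 21). Hif3a, a hypoxia-inducible factor subunit, measured 5.07, 13.4, 8.49, 15.7 and 17.9 CPM without nicotine and 3.196 to 7.62 CPM (median 5.83) with it (-1.05 ± 0.27, SE, edgeR adjusted p = 0.0382, 0.0507 without replicate 21).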
